A study of Mus musculus with 10 samples.

Results

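The sodium-potassium pump of the plasma membrane has a catalytic alpha subunit and a glycosylated beta subunit, and the transcripts of 3 beta subunit genes, Atp1b1, Atp1b2 and Atp1b3, were followed here in 10 single inspiratory neurons. They were chosen by name, and all 3 were found among the 55367 genes of the deposited tables. The pump exports sodium ions and imports potassium ions at the cost of ATP. The beta subunit is needed for the alpha subunit to fold and reach the membrane, and it shapes the affinity of the pump for its ions. In preBötC neurons the sodium that enters during an inspiratory burst drives an outward pump current, which helps to end the burst. Atp1b1 encodes the beta subunit regarded as typical of neurons, Atp1b2 the one first described as an adhesion molecule on glia, and Atp1b3 a widely expressed form.

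Each sample is the cytoplasm of 1 neuron, drawn into a patch pipette in a slice from a P0 to P3 mouse, and carried through SMART-Seq v4 and paired-end sequencing. Neurons were typed in whole-cell recordings by how late their inspiratory drive began and by the A-type potassium and the h current, and those left without a type are called Unknown. Of the Type-1 neurons, samples 5, 6 and 7 were Dbx1-derived (P0, P3 and P3) and sample 4 came from a CD-1 mouse (P3). The Type-2 neuron, sample 1, was Dbx1-derived (P0), and the 5 Unknown neurons, samples 2, 3, 8, 9 and 10, came from CD-1 mice (P2, P0, P0, P2 and P1). Dbx1-derived neurons were identified in Dbx1;Ai148 offspring, on a C57Bl/6J or mixed C57Bl/6J; CD1 background, by GCaMP6f fluorescence. The Cre is driven by the Dbx1 promoter, so the label marks neurons whose precursors expressed Dbx1. Each neuron's line is that of its sample label, WT being read as CD-1. The study's text gives each type the same lines as the labels do, whereas its figure legends number them otherwise (samples 1 to 6 as CD-1, 7 to 10 as Dbx1;Ai148), which cannot hold together with that text. CD-1 neurons, with no reporter, were accepted when they fired in step with hypoglossal output. The labels name no animal, so a group of neurons counts as 1 sample. No test was made between groups, no p-value is given, and each SD below is a spread over neurons. Type and line cannot be told apart in most of these neurons, since all 5 Unknown neurons are CD-1 and 3 of the 4 Type-1 neurons are Dbx1-derived.

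Libraries held between 21392146 and 36629393 fragments counted on genes. Some libraries stood apart in their cell type markers. In sample 4, labelled Type-1, the 8 neuron markers averaged 2.10 on the log2(FPKM + 1) scale, against 4.51 to 7.58 in the other 9 neurons, and all 8 microglia markers were at 1 FPKM or more, with a mean of 10.06 and 1.98% of all fragments. Sample 2 also had all 8 microglia markers at that level, with a mean of 7.72. In sample 1, labelled Dbx1-derived, the inhibitory genes Slc6a5 (a glycine transporter) and Gad1 (which makes GABA) were at 146 and 71.8 FPKM. Of the other inhibitory markers, Gad2 was at 43.5 FPKM and Slc32a1 at 0.0167 FPKM there. The neuron markers of sample 1 averaged 4.51, the second lowest. Of the 6 endothelial markers, 4 had no fragment in any neuron. The study notes that samples 1 to 4 had less cDNA and more variable expression than the rest. Key values are therefore also given without 1 or more of these samples.

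Atp1b1 lies on the minus strand of chromosome 1 (164437109 to 164458355 in GRCm38), Atp1b2 on the minus strand of chromosome 11 (69599736 to 69605942) and Atp1b3 on the minus strand of chromosome 9 (96332655 to 96364442). All are protein-coding genes in GENCODE M21. The merged exons of 3081, 4085 and 2389 bases equal the deposited gene lengths. The last 100 bases before the RefSeq start are shown for Atp1b1 and Atp1b3. Atp1b2 had no entry among the promoter sequences used. The RefSeq start of Atp1b3 lies inside the GENCODE gene, so 11 of its 100 bases are also part of that gene. The sequences are from RefSeq on GRCm38.p6, printed 5′ to 3′ on the minus strand, and capitals mark matches to the motifs searched on both strands. These were the TATA box core TATAAA and its variant TATATA, the CCAAT box, which reads ATTGG on the other strand, and the GC box GGGCGG. No matches overlapped.
Atp1b1, chr1:164458356-164458455: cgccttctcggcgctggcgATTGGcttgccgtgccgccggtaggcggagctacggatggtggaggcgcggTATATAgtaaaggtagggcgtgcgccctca
Atp1b3, chr9:96364432-96364531: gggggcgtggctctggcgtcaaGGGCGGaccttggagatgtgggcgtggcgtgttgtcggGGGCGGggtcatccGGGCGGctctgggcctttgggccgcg
The Atp1b1 stretch held TATATA with its first base 30 bases before the start and ATTGG from 81 bases before it. The Atp1b3 stretch held GGGCGG 3 times, with first bases 78, 40 and 26 bases before the start, and none of the other motifs. Over the 32851 promoters of the table, 2.19% held TATATA in the same window, 5.56% held TATAAA, 18.9% held the CCAAT box and 24.7% held the GC box. A second annotated start of Atp1b3 held none of the motifs. These matches describe the letters only.

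Atp1b1 was the most abundant of the 3 transcripts in 9 of 10 neurons. FPKM (fragments per kilobase of gene length per 1000000 fragments on genes) were 3.53, 295, 369 and 491 in samples 4 to 7, all Type-1. The Type-2 neuron had 192 FPKM, while samples 2, 3, 8, 9 and 10, the Unknown neurons, had 81, 130, 433, 512 and 223 FPKM. Sample 4 lay far below every other neuron, and the lowest of the other 9, sample 2, is the other library with all 8 microglia markers. The mean was 273 ± 176 FPKM (SD, n = 10 neurons), and 303 ± 158 FPKM without sample 4. By FPKM, Atp1b1 ranked between 69th and 954th among the genes with a fragment in each of those 9 neurons, and 5118th of 12586 in sample 4. It ranked 94th, 69th, 82nd and 86th in samples 6, 7, 8 and 9.

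Sample 4 held 320 Atp1b1 fragments (286 to 357 by an exact 95% Poisson interval, which covers counting only). Genes nearly private to 1 library turned up in the others at 0 to 0.157% of their counts, and at these rates 36.2 of the 320 fragments were expected from the other 9 libraries. The settings of this estimate were taken from earlier results of the same data. Its genes were picked for being rare in the other libraries, so it sets no upper limit. Whether more of the 320 fragments came from other libraries was not tested. The exons of Nme7, on the opposite strand, cover 575 bases (18.7%) of the Atp1b1 exons, and since the counting is not stated to use strand, fragments there cannot be assigned to 1 of the 2 genes. Nme7 itself had 7106 fragments over the 10 neurons, against 233611 for Atp1b1. In single neurons Nme7 had from 0 to 5829 fragments, and 2 in sample 4.

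Atp1b3 was the second most abundant beta subunit in 9 neurons and the first in sample 4. Type-1 samples 4 to 7 had 92.3, 62.7, 95.5 and 71.6 FPKM. Unknown samples 2, 3, 8, 9 and 10 had 72.9, 119, 63.8, 35.3 and 65.3 FPKM, and Type-2 sample 1 had 4.72 FPKM. The other 9 neurons thus lay within 3.37-fold of one another, with a mean of 75.4 ± 24 FPKM (SD, n = 9), and sample 1 lay below all of them. The mean over all 10 was 68.3 ± 31.8 FPKM. Sample 1 held 241 fragments, of which 13.5 were expected from other libraries. Gm1848, a gene whose transcript is 96.4% identical to Atp1b3 over 805 bases, had 38 fragments in all 10 neurons together.

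Atp1b2 had the lowest level of the 3 in 9 neurons. Type-1 samples 4 to 7 gave 12.6, 10.1, 11 and 15.3 FPKM, a 1.51-fold range. Unknown samples 2, 3, 8, 9 and 10 gave 14.5, 63.5, 22.8, 6.69 and 12 FPKM, and the 2 highest, samples 3 and 8, also had the highest mean log2(FPKM + 1) over the astrocyte markers. By summed FPKM of that list sample 3 was also highest (6643), but sample 8 (2309) lay below samples 4 (5125) and 2 (3627). Most of each sum came from 1 gene, Apoe, at 5045, 1562, 4991 and 2578 FPKM in samples 3, 8, 4 and 2. At 1 FPKM or more were 9 of the 10 markers in sample 8, 8 in samples 2 and 3, and 5 in sample 4. Sample 2 had an astrocyte mean of 4.89, near the 5.03 of sample 8. Its Atp1b2 was at 14.5 FPKM, close to the 15.3 FPKM of sample 7, where the astrocyte mean was 1.67. By rank among genes with a fragment, Atp1b2 was 3411th of 12766 in sample 2 and 3817th of 13188 in sample 7. In the Type-2 sample 1, Atp1b2 was at 0.114 FPKM from 10 fragments (4.8 to 18.4 by the same interval), and 7.6 fragments were expected from other libraries. Expression of Atp1b2 above such reads was therefore not detectable in this library. Of the 10 astrocyte markers 4 were at 1 FPKM or more there, and the list averaged 2.87. Slc1a3 was at its highest there (41.1 FPKM) and Agt was at 149 FPKM. Aqp4, Sox9, Aldh1l1, Kcnj10, Slc1a2 and Gja1 were at 0.0678 FPKM or less. The mean was 16.9 ± 17.4 FPKM (SD, n = 10), and 18.7 ± 17.4 FPKM without sample 1.

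**Figure D1:**
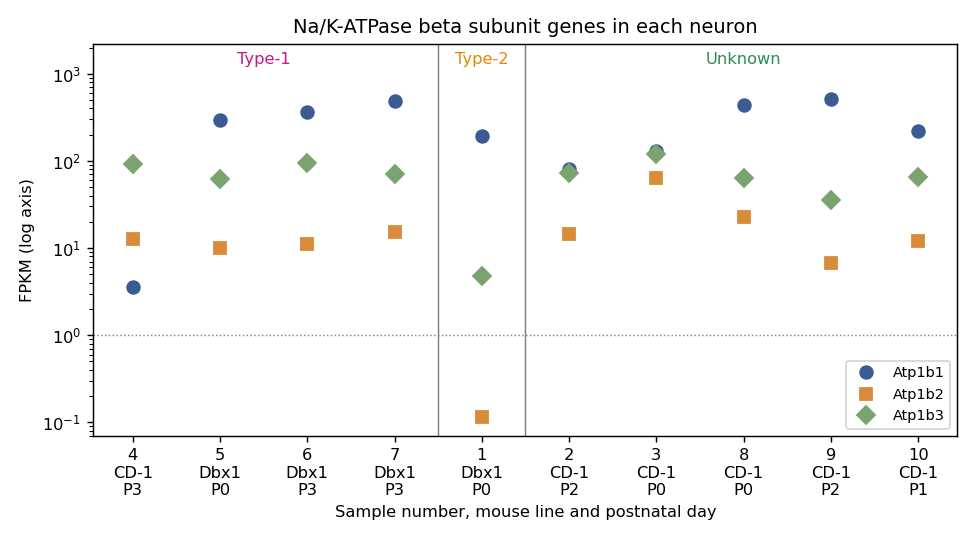
FPKM of Atp1b1 (circles), Atp1b2 (squares) and Atp1b3 (diamonds) on a log axis in each of the 10 neurons, grouped by Type-1, Type-2 and Unknown, with the dotted line at 1 FPKM. Atp1b1 is the highest point in 9 neurons and falls to 3.53 FPKM in sample 4, and Atp1b2 and Atp1b3 are at their lowest, 0.114 and 4.72 FPKM, in sample 1.

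Within a neuron Atp1b3 was above Atp1b2 in 10 of 10 cases. In the 9 neurons other than sample 1, where Atp1b2 was not detectable above reads from other libraries, the ratio was 1.88-fold in sample 3 to 8.71-fold in sample 6, and the difference on the log2(FPKM + 1) scale was 2.18 ± 0.65 (SD, n = 9). Atp1b1 exceeded Atp1b3 in 9 of 10 neurons. The mean difference was 1.62 ± 2.58 on the same scale (SD, n = 10), so it was smaller than its SD over all neurons. This rests on sample 4. Without it the difference was 2.29 ± 1.59 (n = 9), and within samples 5 to 10 it was 2.54 ± 0.75, with Atp1b1 3.42-fold to 14.5-fold higher. Averaged over neurons on that scale, Atp1b1 was at 7.44 ± 2.04, Atp1b3 at 5.82 ± 1.25 and Atp1b2 at 3.62 ± 1.47. Within samples 5 to 10 these were 8.54 ± 0.46, 6.00 ± 0.46 and 3.72 ± 0.55, and each neighbour in the order then lay further from the next than these SDs. For comparison, 2541 genes reached 1 FPKM in at least 9 neurons, and the median SD of their log2 values was 1.43. Atp1b1 varied more than 86.5% of these genes, Atp1b2 more than 52.5% and Atp1b3 more than 39.8%. With a pseudocount of 0.1 in place of 1 the SDs of Atp1b1 and Atp1b2 were alike, at 2.13 and 2.12. Without sample 4 the SD of Atp1b1 was 0.91 (pseudocount 1), and without sample 1 those of Atp1b2 and Atp1b3 were 0.87 and 0.49. The median SD of 1.43 was taken over all 10 neurons only, so it is no background for these values.

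The make-up of the beta transcripts varied between neurons. Summed over the 3 genes the level was between 108 FPKM (sample 4) and 578 FPKM (sample 7). Atp1b1 made up 80.2%, 77.6% and 85% of that sum in the Dbx1-derived Type-1 samples 5, 6 and 7, and 97.5% in the Type-2 sample 1. In the Unknown neurons its share was 48.1%, 41.5%, 83.3%, 92.4% and 74.3% (samples 2, 3, 8, 9 and 10). In samples 2 and 3 Atp1b1 and Atp1b3 were thus nearly level, at ratios of 1.11 and 1.09. Sample 4 had 3.26% from Atp1b1, 11.6% from Atp1b2 and 85.1% from Atp1b3.

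**Figure D2:**
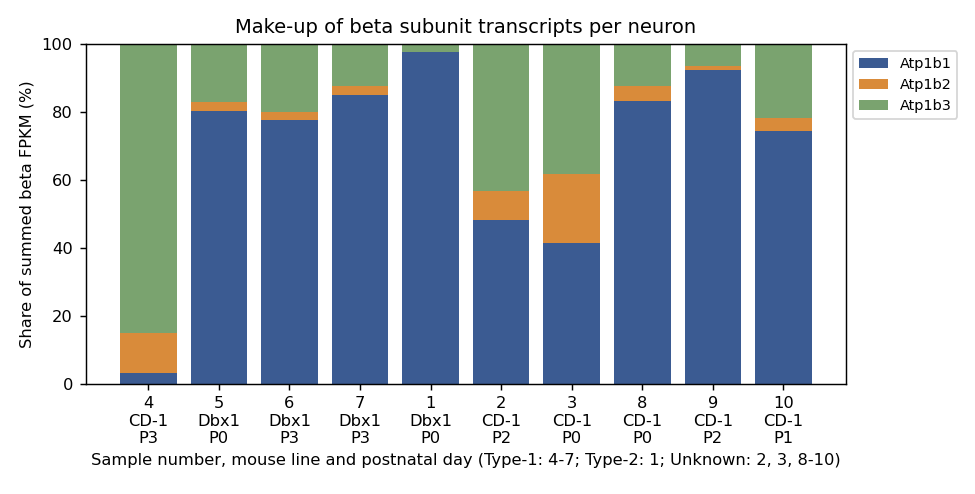
Stacked bars give the share of the summed FPKM of the 3 beta subunit genes, in percent, that came from Atp1b1, Atp1b2 and Atp1b3 in each neuron. Atp1b1 makes up between 74.3% and 97.5% of the bar in 7 neurons, 48.1% and 41.5% in samples 2 and 3, and 3.26% in sample 4.

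Between mouse lines, Atp1b1 averaged 8.32 ± 0.57 in the 4 Dbx1-derived neurons and 6.86 ± 2.50 in the 6 CD-1 neurons on the log2(FPKM + 1) scale, a difference of 1.46 that is smaller than the pooled SD of 2.01. The ranges overlapped. Over the 12955 genes with a mean of at least 1 FPKM, 28.2% were higher in Dbx1-derived neurons by at least 1 on this scale, and the median difference was 0.22. Without sample 4 the Atp1b1 difference was 0.53. Atp1b2 was lower in Dbx1-derived neurons by 1.35 (2.81 ± 1.78 against 4.16 ± 1.05), where 16.7% of genes were lower by at least 1, and without sample 1 the difference was -0.46. Atp1b3 differed by -0.83 (5.32 ± 1.89 against 6.15 ± 0.58), and by 0.10 without sample 1. For all 3 genes the values of the 2 lines overlapped, as they did for most genes. The lines separated completely in 1.24% of genes with Dbx1-derived neurons higher, and in 0.942% with them lower.

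Between Type-1 and Unknown neurons the 3 genes again overlapped. Atp1b1 averaged 6.97 ± 3.21 in the 4 Type-1 and 7.79 ± 1.12 in the 5 Unknown neurons, a difference of -0.83 that became 0.77 without sample 4. Atp1b2 differed by -0.53 (pooled SD 0.88), and by -0.08 without sample 3. Atp1b3 was at 6.33 ± 0.29 and 6.07 ± 0.61, a difference of 0.25 with a pooled SD of 0.50. No beta subunit passed a difference of 1 here, where 22.6% of all genes were higher and 12.4% lower in Type-1 neurons by that much, and where the ranges were apart in 0.625% (higher) and 0.448% (lower).

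By age, the 5 neurons of P2 and P3 and the 4 of P0 also overlapped for each gene. Atp1b1 differed by -0.89 (P2-P3 minus P0, pooled SD 2.25), Atp1b2 by 0.10 and Atp1b3 by 0.78. At least 1 higher at P2 and P3 were 17.5% of genes, and 19.1% were at least 1 lower. The ages separated completely in 0.44% (higher) and 0.355% (lower) of genes. Each difference changed sign when 1 library was left out, to 0.31 for Atp1b1 without sample 4, and to -1.03 and -0.16 for Atp1b2 and Atp1b3 without sample 1.

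**Figure D3:**
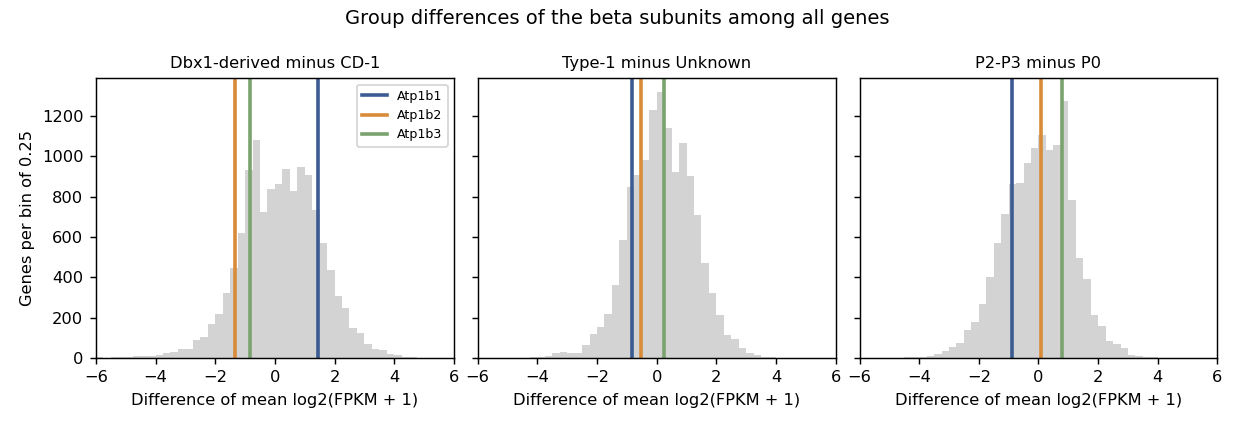
Grey histograms count, in bins of 0.25, the 12955 genes with a mean of at least 1 FPKM by their difference of mean log2(FPKM + 1) between lines, types and ages, and coloured lines mark the 3 beta subunit genes. The lines fall within the body of each histogram, the outermost being Atp1b1 at 1.46 and Atp1b2 at -1.35 between mouse lines.

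Beside the transmitter genes of the same libraries, the 4 neurons with Slc17a6, the vesicular glutamate transporter, at 101 FPKM or more (samples 5 to 8) had Atp1b1 at 295, 369, 491 and 433 FPKM. The 3 with Gad1 at 37.2 FPKM or more (samples 1, 3 and 10) had 192, 130 and 223 FPKM. The remaining samples 2, 4 and 9 had Slc17a6 at 1.85, 0.157 and 0.495 FPKM and Gad1 at 0.0356 FPKM or less, and their Atp1b1 was at 81, 3.53 and 512 FPKM, the last being the highest of all. This split uses 1 gene per transmitter, and inhibitory transcripts cross it. Gad1 was at 8.28 FPKM in sample 8. The inhibitory marker Gad2 was at 5.14 and 2.53 FPKM in samples 7 and 4, and Slc32a1 at 5.95 FPKM in sample 2. All these values are set side by side without a comparison, because the transmitter was read from the same libraries.

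The levels were then set beside marker lists of the cell types a pipette could pick up. Over the 10 neurons Atp1b1 followed the mean of the 8 neuron markers (Pearson r = 0.88, Spearman rho = 0.87), and Pearson's r fell to 0.45 without sample 4 (rho = 0.82, n = 9 neurons). Against the microglia list r was -0.85, and -0.70 without sample 4. Atp1b2 had r = 0.44 with the astrocyte list (rho = 0.54). This was 0.77 without sample 1 and 0.20 without sample 3, so it depends on single libraries. In samples 2, 3 and 8 the astrocyte list averaged 4.89, 5.39 and 5.03, with 8, 8 and 9 of its 10 genes at 1 FPKM or more, and elsewhere it averaged 1.18 to 2.87. The oligodendrocyte lineage list had r = 0.68 with Atp1b2 and was between 0.02 and 3.14, highest in sample 3. Atp1b3 had r = 0.39 with the microglia list and 0.15 with the astrocyte list, and was at 71.6 and 35.3 FPKM in samples 7 and 9, where the microglia list averaged 0.17 and 0.69. Atp1b2 and Atp1b3 moved together over neurons (r = 0.91), less so without sample 1 (r = 0.68). Within samples 5 to 10 (n = 6) Atp1b1 had r = 0.35 with the neuron markers (rho = 0.60) and -0.67 with the microglia list. In the same 6 neurons Atp1b2 had r = 0.78 with the astrocyte list and 0.49 with Atp1b3. Within each library both measures share its depth and its RNA, so the correlations are descriptions, and the part of RNA from other cells in the levels was not tested.

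**Figure D4:**
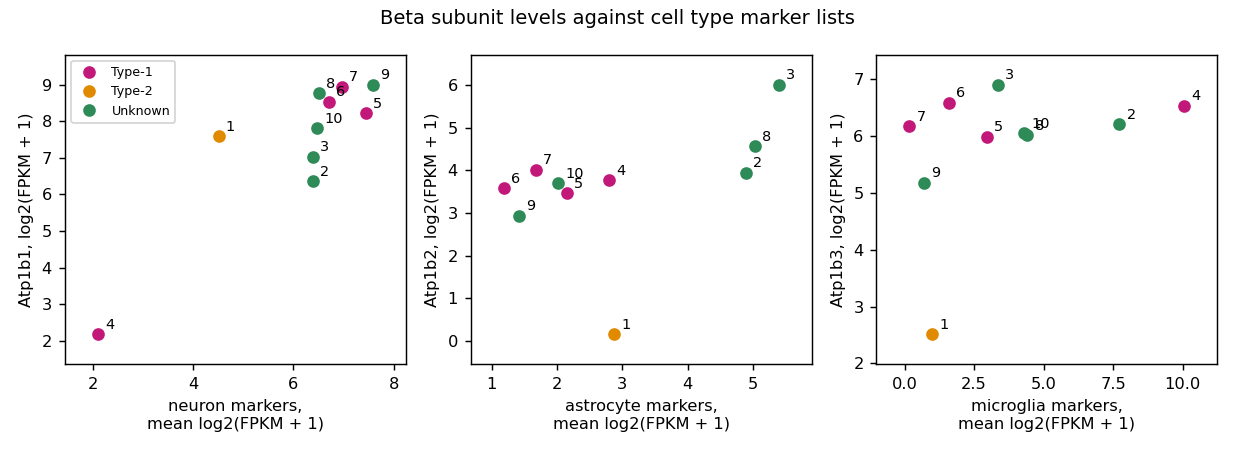
Each point is 1 neuron, numbered by sample and coloured by type. From left to right, log2(FPKM + 1) of Atp1b1, Atp1b2 and Atp1b3 is plotted against the mean log2(FPKM + 1) of the neuron, astrocyte and microglia markers. Sample 4 sits alone at the lower left of the first panel (2.10 and 2.18), and samples 2, 3 and 8 have the 3 highest astrocyte values.

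Among proteins that associate with the pump, only 2 of 7 FXYD genes, which encode small regulators of its ion affinity, reached 1 FPKM in 5 or more neurons. Fxyd7, known from brain, gave 46.6, 275, 269 and 382 FPKM in samples 4 to 7 (Type-1), 91.2 FPKM in sample 1, and 100, 33.9, 105, 923 and 167 FPKM in samples 2, 3, 8, 9 and 10 (Unknown). It thus reached its highest level in the neuron that also had the highest Atp1b1. Fxyd6 gave 2.91, 303, 291 and 329 FPKM in samples 4 to 7, 56.9 FPKM in sample 1, and 8.31, 66.6, 37.1, 185 and 143 FPKM in the Unknown neurons, listed as before. Its 2 lowest values were in samples 4 and 2, as for Atp1b1. Over the 10 neurons Atp1b1 had r = 0.84 with Fxyd6 and 0.66 with Fxyd7, and within samples 5 to 10 these were -0.05 and 0.49. The other 5 FXYD genes had means of 1.41 FPKM or less. Of the 4 Nkain genes, whose products bind the pump, Nkain4 passed the same level, with a mean of 25.3 ± 43.6 FPKM and its maximum of 141 FPKM in sample 3, where Atp1b2 and Atp1b3 were also highest. Nkain3 was highest in sample 1, at 24 FPKM.

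None of 4 subunits of related pumps passed. Atp1b4, Atp4b and Atp12a had no fragment in any neuron, which allows up to 3 per library, while Atp4a, the catalytic subunit of the gastric proton pump, reached 11.1 FPKM in sample 7 and no more than 0.0373 FPKM elsewhere. Of 3 sodium-calcium exchangers, which use the sodium gradient that the pump maintains, 2 reached 1 FPKM in 5 neurons each. Slc8a3 did so in samples 5, 6, 7, 9 and 10 (4.79, 29.2, 9.46, 24.1 and 6.83 FPKM), and Slc8a1 in samples 1, 5, 6, 7 and 8 (12.9, 3.7, 8.7, 7.09 and 22 FPKM). Neither exceeded 0.0319 FPKM in samples 2, 3 and 4. Of the 4 plasma membrane calcium pumps 3 passed, led by Atp2b2 at 18.8 ± 11.6 FPKM and Atp2b1 at 16.9 ± 11.6 FPKM. Atp2b1 was at 25.4 FPKM in sample 4, within the range of the other neurons, and Atp2b2 was at 1.67 FPKM there, its lowest value.

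**Figure D5:**
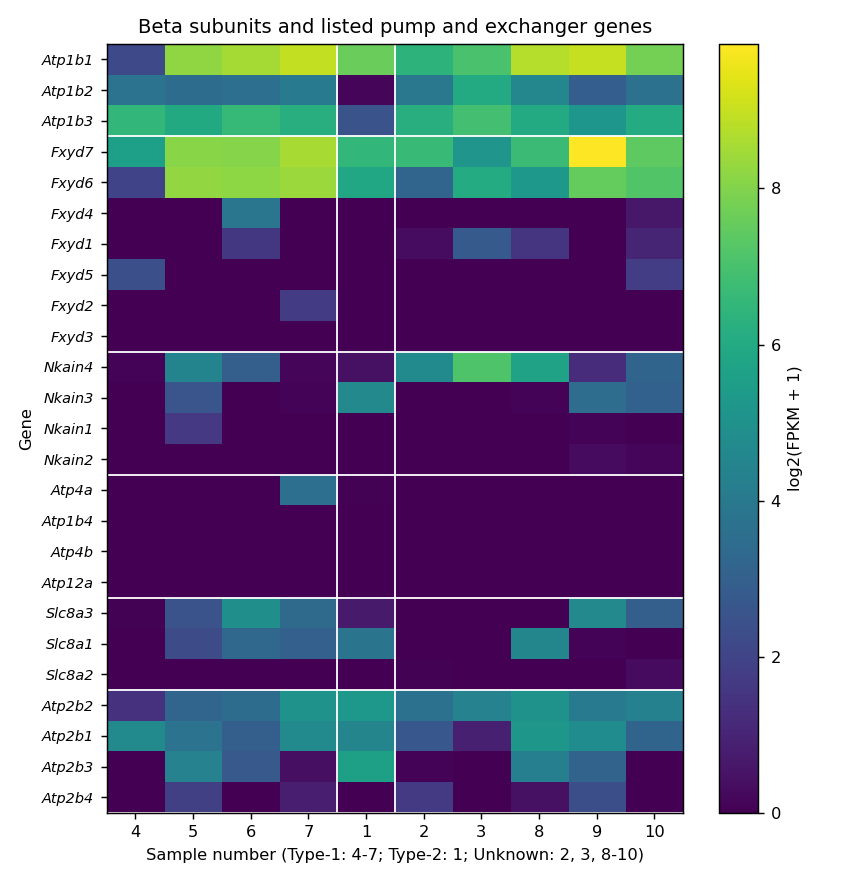
Colour gives log2(FPKM + 1) of the 3 beta subunits and of the listed FXYD, Nkain, related pump, sodium-calcium exchanger and calcium pump genes (rows, lists parted by white lines) in each neuron (columns, types parted by white lines). Fxyd7 and Fxyd6 are bright in samples 5, 6 and 7, and Slc8a3 and Slc8a1 are dark in samples 2, 3 and 4.

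The genes most like each subunit over the 10 neurons were taken by Pearson's r of log2(FPKM + 1) among 6817 genes. For Atp1b1 they were Ttc3, a ubiquitin ligase (r = 0.968), Rtn1, a reticulon of neurons (0.967), Snap25, a protein of synaptic vesicle fusion (0.959), Cops3 (0.957) and Maged1 (0.956), where the median over all genes was 0.24 and the 99th percentile 0.89. Without sample 4, in which all 5 had their lowest level, their r was 0.75 to 0.83. For Atp1b2 they were Mtfr1l, Commd8, Scp2-ps2, Ptn and Rpl7a (r = 0.937, 0.935, 0.933, 0.917 and 0.913). All 5 had their lowest level in sample 1, as Atp1b2 did, and without that neuron their r was 0.69 to 0.86. Ptn, a secreted growth factor, peaked in samples 3 and 8 (281 and 143 FPKM), and no other neuron exceeded 48.7 FPKM. For Atp1b3 they were Hmgb1, Edf1, Hnrnpa1, Scp2 and Dynlrb1 (r = 0.969, 0.967, 0.962, 0.961 and 0.959), and all 5, like Atp1b3, had their lowest level in sample 1. In that library these 5 genes were at 1.16, 0.639, 0.519, 0.363 and 29.9 FPKM. Without it their r was 0.67 to 0.78. By Spearman's rho, 0, 1 and 0 of the 5 genes stayed among the 5 closest to Atp1b1, Atp1b2 and Atp1b3.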

How the data were processed

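The authors trimmed the reads with bbduk, aligned them with STAR 2.7.7a to GRCm38 and counted fragments per gene with featureCounts. They deposited raw fragment counts, gene lengths in bases, and FPKM. Dividing the counts by length in kilobases and by each library's sum in units of 1000000 gave the deposited FPKM to within 5.1e-11. Options for strand and for multiply mapped fragments were not given in the sources used here.

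FPKM were used as deposited, and differences were taken on log2(FPKM + 1), which understates changes of low genes. The members and gene lists were chosen with earlier results of these data known. Named were the 3 genes, the 2 highest of each list of pump, exchanger and marker genes where its values bear on them, and the 5 genes of closest Pearson correlation among genes reaching 1 FPKM in 5 or more neurons, without predicted genes. Others were named after their values were seen. The alpha subunits of the pump and the sodium channel genes are not reported here. Over neurons Slc17a6 was the only one of 3 glutamatergic markers with fragments, and 1 of 4 inhibitory markers, 3 of 8 oligodendrocyte lineage, 6 of 8 microglia, 4 of 10 astrocyte, 8 of 8 neuron and 0 of 6 endothelial markers reached 1 FPKM in 5 or more neurons.

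A group difference of 1 (2-fold) was the limit for the counts over all genes. Reads from other libraries were estimated on genes with at least 1000 fragments in 1 library and at most 2% of that elsewhere, trimmed by 5%. The steps were run on simulated counts with planted changes and planted reads from other libraries. This checks the code only, since the simulated spread was not matched to these libraries. Work was done with edgeR 4.0.16 in R 4.3.3 (scaling factors only) and, in Python 3.11.15, with SciPy 1.17.1, pandas 2.3.3 and NumPy 2.4.6. Reads carry no molecular identifiers, so intervals cover counting error only.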

Additional observations from a re-analysis of the deposited data

Results flagged for a closer look

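Of 21 groups of neurons and genes examined (3 genes over all 10 neurons and over each type, line and age class of at least 4), 6 held a neuron whose gap to the nearest other took up more of the range than Dixon's 95% limit allows. They came from 3 values. Atp1b1 in sample 4 was at 2.18 on the log2(FPKM + 1) scale, or 3.53 FPKM, apart from the other 9 neurons and from the other Type-1 neurons. Atp1b2 in sample 1 was at 0.16, or 0.114 FPKM, and Atp1b3 in the same neuron at 2.51, or 4.72 FPKM, each apart from the other 9 neurons and from the other Dbx1-derived neurons. Chance flags about 1 in 20 groups, and these groups share neurons. Sample 4 is the library with the lowest neuron and the highest microglia markers. Sample 1 held 10 fragments of Atp1b2, 241 of Atp1b3 and 12627 of Atp1b1.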

How the results depend on the processing

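TPM and TMM scale all genes of a neuron by 1 factor and so cannot change their order within it. They do change differences between neurons. Between lines the differences of Atp1b1, Atp1b2 and Atp1b3 were 2.00, -1.16 and -0.35 by TPM and 1.23, -1.67 and -1.09 by TMM. With a pseudocount of 0.1 they were 1.52, -1.93 and -0.89, against 1.46, -1.35 and -0.83 by FPKM as used above. Atp1b1 was the highest of the 3 in 9 of 10 neurons after thinning all libraries to the smallest total, and in 6 of 6 without samples 1 to 4. Leaving out 1 neuron at a time gave 8 to 9 neurons, and mean levels of 7.27 to 8.03 for Atp1b1, 3.35 to 4.00 for Atp1b2 and 5.70 to 6.19 for Atp1b3. The group differences rest on few libraries. Leaving out 1 neuron gave 0.53 to 1.89, -1.75 to -0.46 and -1.26 to 0.10 for Atp1b1, Atp1b2 and Atp1b3 between lines, -1.48 to 0.77, -0.85 to -0.08 and 0.03 to 0.46 between types, and -1.40 to 0.31, -1.03 to 0.92 and -0.16 to 1.30 between ages. Without samples 1 to 4, where lines and types split the same 6 neurons, the differences of Atp1b1 and Atp1b2 were 0.04 and -0.05, and that of Atp1b3 between lines moved to 0.51; the cause was not tested. Without samples 1 and 4, left out after their values were seen, they were 0.77, -0.54 and 0.18. Between ages, without samples 1 to 4, the differences were 0.34, -0.51 and -0.02 for Atp1b1, Atp1b2 and Atp1b3. With genes of any fragment as background (21231 genes), 17.5% were higher and 10.2% lower by at least 1 in Dbx1-derived neurons. No paired analysis was possible because the labels number the neurons from 1 to 10 and share no number between groups. The lowest count of the 3 genes was that of Atp1b2 in sample 1, at 10 fragments, with 7.6 expected from other libraries.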
